A study of Drosophila melanogaster with 6 samples.

Results

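N6-methyladenosine (m6A) sites outside 5' UTRs that carried both kinds of miCLIP read evidence were examined in S2R+ cells, an untreated Drosophila line of haemocyte-like character. In miCLIP, UV light fixes an anti-m6A antibody to fragments of mRNA, and reverse transcriptase then either reads through the adduct with a C-to-T change or stops there and leaves a truncated cDNA. The study made 4 replicate m6A immunoprecipitations (IPs), 1 IP without crosslinking and 1 library of fragmented mRNA, all from polyadenylated RNA of this 1 cell line. The values were combined over the IPs by the authors, so they carry no SD, no result below compares samples, and neither control library was analysed here.

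The sites were selected on measured values. A C-to-T site entered when its deposited label was coding or 3' UTR and a truncation site at an A lay exactly 1 nt upstream on the same strand; such a couple is called a pair here. This gave 305 pairs in 217 genes, of 6225 C-to-T sites and 22917 truncation sites in all. Of the C-to-T sites labelled coding, 98 of 1569 were paired, a share of 6.25% (95% Wilson interval 5.15% to 7.55%). Of those labelled 3' UTR, 207 of 832 were paired, or 24.9% (22.1% to 27.9%). The share was 48.8% among 3516 sites labelled 5' UTR and 35.1% over the whole list. Since pairing was the rule, these shares are descriptions, and nothing is read from them about the pairs themselves. The intervals cover counting error only and treat sites of 1 gene as independent.

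Methylation of A by the METTL3 and METTL14 writer complex occurs at A followed by C, and the C-to-T change is read at that C while the cDNA stops at the A. In Drosophila the mark is placed in the nucleus, is bound there by the YTH domain protein Ythdc1, and is known for its part in sex determination through splicing of Sex-lethal and in the nervous system. In mammals m6A is known to gather near stop codons, whereas fly mRNAs are known for sites in the 5' UTR.

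Nearly all truncation sites listed at this spacing were at A. Of 309 truncation sites directly upstream of a C-to-T site labelled coding or 3' UTR, 305 were at A, 2 at C and 2 at T, with 0 at G. How many of all these C-to-T sites have an A there was not determined, so the count has no background. At 2 nt upstream there were 147 truncations at A and 77 at T, and 139 of those at A stood beside C-to-T sites without a pair. These near misses are not among the 305. A further 48 truncations fell on the converted C itself, and 27 at A lay 1 nt downstream.

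The label did not hold for many of the 3' UTR pairs. All 98 pairs labelled coding lay in coding sequence of Ensembl release 115. Of the 207 labelled 3' UTR, 103 (49.8%, interval 43.0% to 56.5%) lay in annotated 3' UTR, 97 (46.9%, 40.2% to 53.7%) lay only in annotated 5' UTR, and 7 fell in different parts according to the isoform or the overlapping gene. The 97 fell in 61 genes, at a median of 436 nt upstream of the start codon, and 62 of them were in exon 1. In 0 of the 97 did a 3' UTR run along the opposite strand. They are called discordant pairs below, in the sense that label and annotation differ, and the 3' UTR pairs are the 103.

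The authors' own second list often gave the other label at the adjacent base, and it did so by strand. For 52 of 52 discordant pairs on the minus strand the truncation 1 nt upstream was labelled 5' UTR. For the plus strand this was so in 0 of 45, where both members of the pair were labelled 3' UTR. Over all truncation sites labelled 3' UTR, 308 of 1734 (17.8%, interval 16% to 19.6%) on the plus strand lay in annotated 5' UTR, against 14 of 1432 (0.978%, 0.583% to 1.63%) on the minus strand. For C-to-T sites labelled 3' UTR the shares were 82 of 418 (19.6%) on the plus strand and 114 of 414 (27.5%) on the minus strand. Among pairs labelled and annotated 5' UTR, the truncation was labelled 3' UTR in 38 of 759 on the plus strand and 0 of 919 on the minus strand. The sources used here do not give how the labels were assigned, and the cause was not tested.

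**Figure D1:**
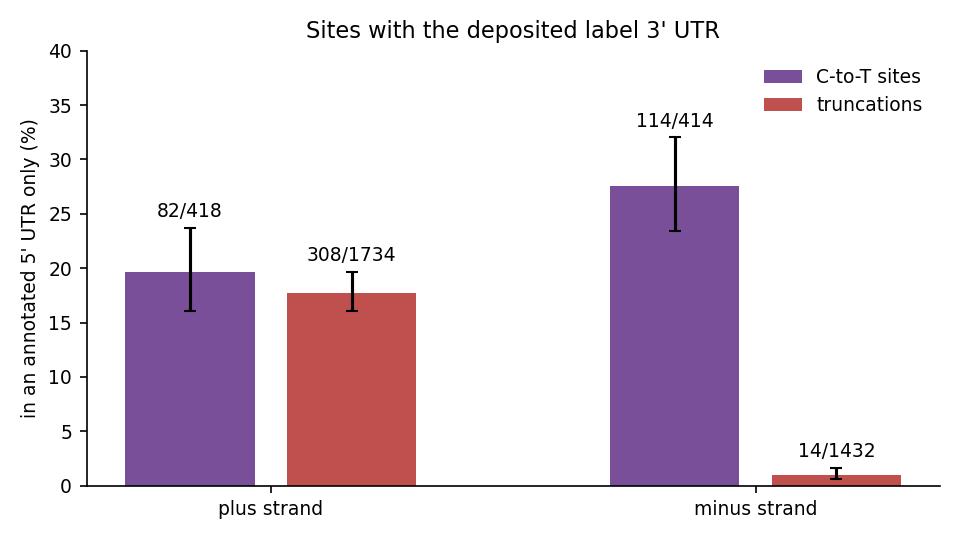
Share of sites labelled 3' UTR by the authors that lie only in an annotated 5' UTR (y axis, percent), by strand (x axis) for the C-to-T list and the truncation list. Bars start at 0, error bars are 95% Wilson intervals and the counts stand above them. The minus-strand truncations, at 0.978%, lie below the other 3 bars, which run from 17.8% to 27.5%.

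C-to-T sites with this discordance were paired at a share close to that of 5' UTR sites. Of 196 C-to-T sites labelled 3' UTR but annotated 5' UTR, 97 were paired, or 49.5% (42.6% to 56.4%), and of 3418 sites both labelled and annotated 5' UTR 49.1% were. Of 584 sites both labelled and annotated 3' UTR, 103 were paired, or 17.6% (14.8% to 20.9%). Of the 61 genes with a discordant pair, 48 also had a pair labelled 5' UTR. Over all 217 genes the count was 95 (43.8%), with 28 of 82 for genes with coding pairs and 22 of 76 for 3' UTR pairs. Within 200 nt on the genome, 59 of the 97 discordant pairs had a C-to-T site labelled 5' UTR. No like count of neighbours was made for the other pairs. By annotation alone, 112 of 609 3' UTR sites were paired (18.4%), since 9 pairs labelled 5' UTR lay in annotated 3' UTR and were missed by the rule.

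The values of the pairs spanned a wide range. Unique tags over the converted C ran from 32.0 to 2042 with a median of 193, converted tags from 4.0 to 89.1 with a median of 8.0, and conversion from 0.610% to 19.1% with a median of 4.70%. The truncation peak height, in tags, ran from 9.50 to 298 with a median of 31.0. Median conversion was 4.25% in coding pairs, 5.53% in 3' UTR pairs and 4.33% in discordant pairs, at median depths of 188, 150 and 206 tags. Conversion is a ratio to depth, and no pair had a mean of fewer than 4.0 converted tags, so the lowest conversion a pair could show was set by its depth.

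**Figure D2:**
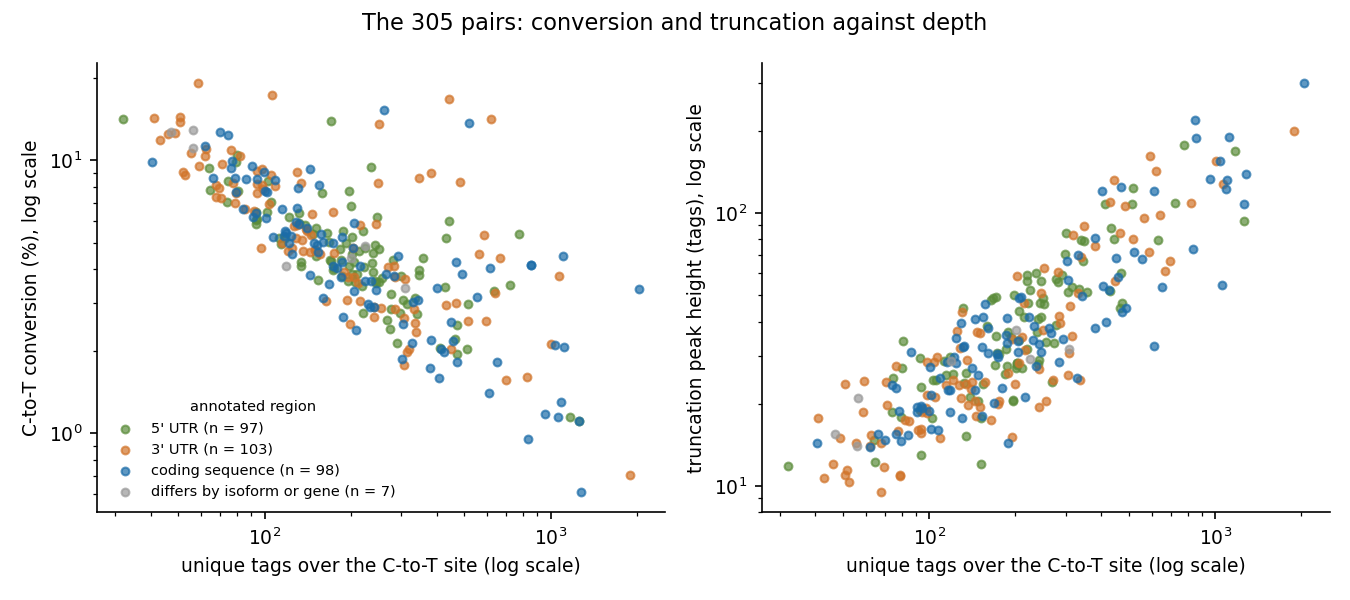
Each point is 1 of the 305 pairs, coloured by annotated region. Left, C-to-T conversion in percent against unique tags over the site; right, truncation peak height in tags against the same depth; all axes are logarithmic. The lower edge of conversion falls with depth, from 8.82% at 52.5 tags in CG3008 to 0.955% at 836.5 tags in CG3164, while peak height rises with depth.

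Unpaired C-to-T sites were deeper and less converted, and most of them lay in the genes of the translation machinery. Their median conversion was 1.94% at 488 tags for the coding label and 2.37% at 359 tags for the 3' UTR label. Ribosomal protein genes and the listed initiation and elongation factors, together called translation genes here, held 1274 of 2096 unpaired sites (60.8%) but 18 of 98 coding pairs and 18 of 103 3' UTR pairs. Outside these genes, pairs and unpaired sites were close in both values, at 4.87% and 175 tags against 4.45% and 166 tags. Within them they were 3.28% at 498 tags against 1.5% at 657 tags. Pairing itself was rarer in translation genes, at 18 of 995 coding sites (1.81%, interval 1.15% to 2.84%) against 80 of 536 elsewhere (14.9%, 12.2% to 18.2%), and at 6.25% against 28.7% of 3' UTR sites. Depth moved with this difference, and its part was not tested.

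Coding pairs lay near the start codon. Of the 98, 60 (61.2%, interval 51.3% to 70.3%) were in the first 200 nt of the coding sequence, which made up 18.4% of the coding length of their isoforms, and 41 were in the first 100 nt. Unpaired sites labelled coding lay in shorter coding sequences, with a median of 813 nt over the 1437 placed, against 1803 nt for pairs. Among unpaired coding sites 423 of 1433 (29.5%, 27.2% to 31.9%) were in the first 200 nt. With 1 site per gene the counts were 56 of 82 (68.3%) for pairs and 88 of 343 (25.7%) for unpaired sites, and outside translation genes 50 of 67 (74.6%, 63.1% to 83.5%) and 57 of 246 (23.2%, 18.3% to 28.8%). In translation genes, where 7 of 18 pairs (38.9%, 20.3% to 61.4%) and 324 of 977 unpaired sites (33.2%) were in the window, the intervals overlapped. No chance test was made on these positions, and the sites of the 2 classes share libraries and, in part, genes.

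The paired share was lower in the first 200 coding nt than in the 5' UTR, and lower again beyond them. Outside translation genes it was 52% from 500 to 201 nt upstream of the start codon, 50.2% from 200 to 101 nt and 51.2% in the last 100 nt of the 5' UTR. It was 35% (35 of 100, interval 26.4% to 44.7%) in the first 100 nt of coding sequence and 34.6% (18 of 52, 23.2% to 48.2%) in the next 100. From 201 to 500 nt it was 5.66% (6 of 106, 2.62% to 11.8%), from 501 to 1000 nt 4.80% (6 of 125), and beyond 1000 nt 9.80% (15 of 153). The windows were chosen with earlier results known, and the intervals treat sites of the same gene as independent. The separation of these intervals is therefore no test of a step between windows, and the shares are descriptions. Beyond 1000 nt, 7 of the 15 pairs were in CG30089, without which the share there was 6.02% (8 of 133). Median depth of the coding sites was 240, 160, 115, 132 and 90.8 tags along these 5 windows, so the later windows were also shallower, and the part of depth was not tested.

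The same pairs were set against the truncation list. Of truncations at A in coding sequence, 9.21% (41 of 445) were paired in the first 100 nt, 5.69% (19 of 334) from 101 to 200 nt, 1.89% (13 of 689) from 201 to 500 nt, 1.24% (8 of 647) from 501 to 1000 nt and 1.52% (17 of 1120) beyond. These shares take in translation genes and count the same pairs, so they are no second sample.

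**Figure D3:**
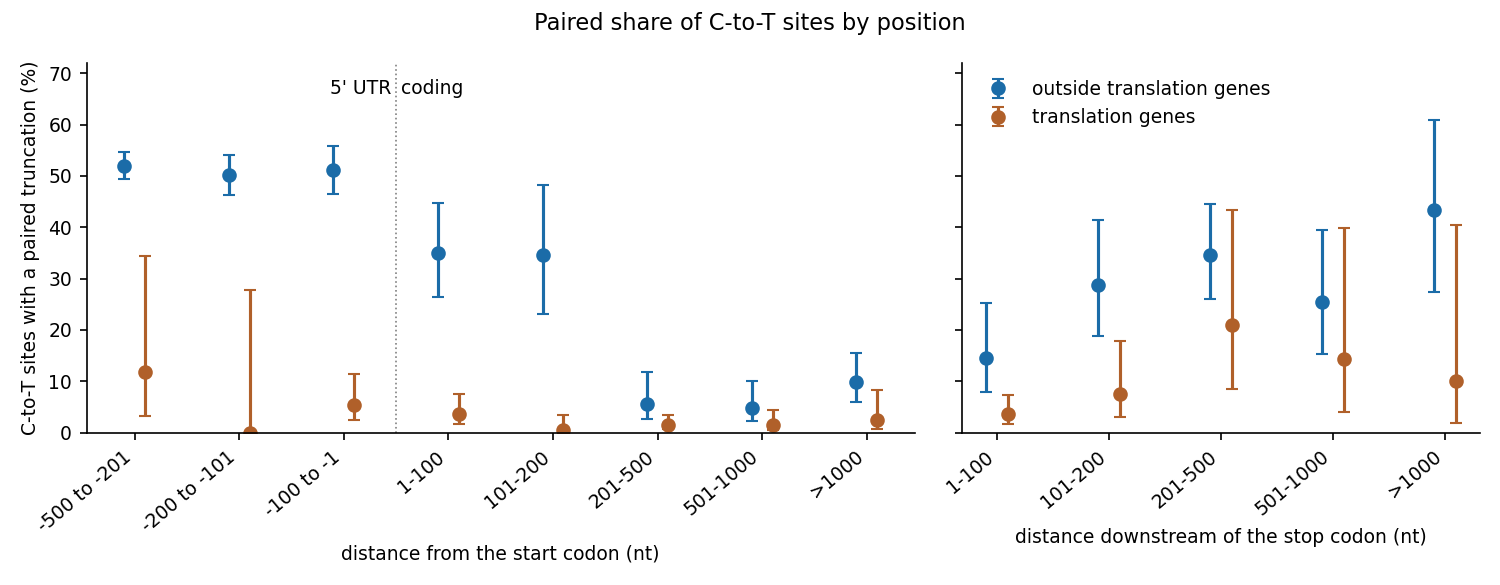
Paired share of C-to-T sites (y axis, percent) in windows of distance from the start codon (left) and downstream of the stop codon (right), in nt, with 95% Wilson intervals as error bars. Outside translation genes the share goes from 52% and 51.2% in 5' UTR windows to 35% and 34.6% in the first coding windows and 5.66% in the next; in translation genes no coding window exceeds 3.57%.

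Within the codon, the A of the coding pairs was at position 1 in 24 pairs (24.5%, interval 17.0% to 33.9%), at position 2 in 47 (48.0%, 38.3% to 57.7%) and at position 3 in 27 (27.6%, 19.7% to 37.1%). The base before unpaired converted C was at position 2 in 57.8% of 1433 sites and at position 1 in 14.9%. Truncations at A without a C-to-T site had another profile, with 55.7% of 3140 at position 1 (54.0% to 57.4%), 27.9% at position 2 and 16.4% at position 3. The interval of the pairs at position 1 lay wholly below that of these lone truncations at A, which were not restricted to an A before a C. Coding truncations at T also had most at position 1, 52.6% of 3555, so that majority was not particular to A. The frequency of A followed by C in each frame was not determined here, so the shares take no account of the positions available.

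**Figure D4:**
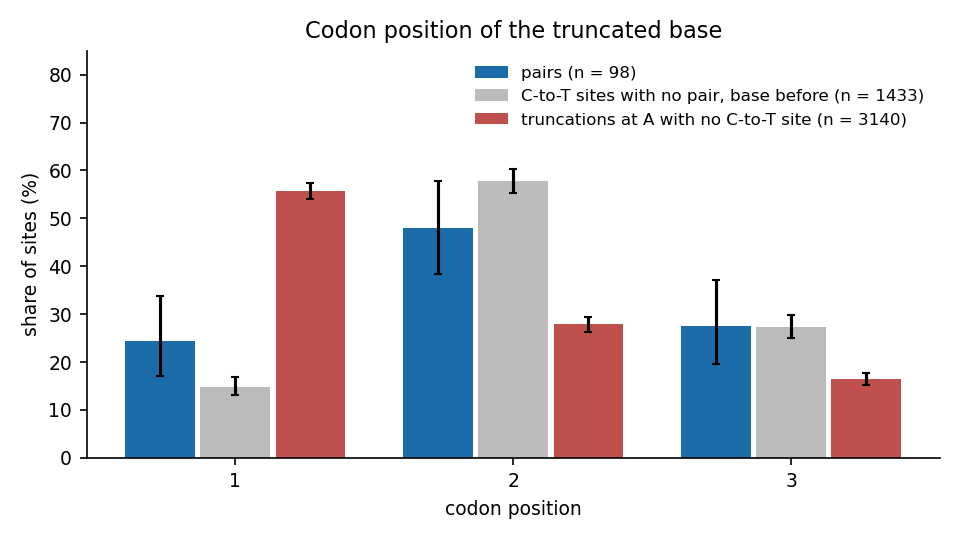
Codon position (x axis) of the truncated A in the 98 coding pairs, of the base before the converted C at 1433 unpaired coding sites, and of 3140 truncations at A with no C-to-T site downstream, as shares of each class in percent with 95% Wilson intervals. Position 2 is the highest for both classes of C-to-T site and position 1 for the lone truncations.

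The 3' UTR pairs lay mostly beyond the stop codon's neighbourhood. Their median distance from it was 283 nt, from 18 to 6014 nt, and 37 of 103 (35.9%, interval 27.3% to 45.5%) were within 200 nt, near the 32.5% that this window took of their 3' UTR length. Unpaired 3' UTR sites lay in shorter 3' UTRs, with a median of 571 nt against 925 nt for the pairs. They were within 200 nt of the stop codon in 329 of 481 cases (68.4%, 64.1% to 72.4%). The share of their 3' UTR length in this window was not determined, so the gap may be partly one of length. Outside translation genes the counts were 26 of 85 (30.6%, 21.8% to 41.0%) and 95 of 211 (45.0%, 38.5% to 51.8%), and these intervals overlap, so the gap was smaller there. All but 3 of the 103 (97.1%) were in the last exon, as were 469 of 481 unpaired 3' UTR sites (97.5%), so this was not particular to pairs. In coding sequence 14 of 98 pairs (14.3%) were within 200 nt before the stop codon, against 432 of 1433 unpaired sites (30.1%). This window took 18.4% of the coding length of the pairs' isoforms, and its share for the unpaired sites was not determined. In the last exon were 20 of the 98 coding pairs, against 750 of 1433 unpaired sites.

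Pairs were spread thinly over genes; counts per gene or list below are of the 305 and leave out pairs labelled 5' UTR unless these are named. Of the 217 genes 157 had 1 pair, 45 had 2 and 15 had 3 or more, and 93 of the 305 pairs had another within 200 nt along the isoform. Only 5 genes had both a coding and a 3' UTR pair.

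CG30089 had the densest group, with 7 pairs within 672 nt of exon 3 on chromosome arm 2R, all in coding sequence and at least 1532 nt past the first base of the start codon. Their conversion ran from 1.30% at 1089 tags to 13.7% at 518 tags, the latter at position 15736053 with 70.4 converted tags. The truncation there had a peak height of 71.7, below the 189 reached at position 15736254, where conversion was 4.13%. The highest conversion and the tallest truncation thus stood at different pairs of the same exon. All 7 C-to-T sites were shared by 4 IPs with at least 1 aligner. At position 15736470 Novoalign gave 2455 summed tags at a mean of 1227.5 per IP, so fewer IPs shared the site with that aligner.

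Ythdc1, named YT521-B by the authors, encodes the nuclear m6A reader and had 7 pairs in its last exon on arm 3L, 1 of them 12 nt upstream of the stop codon and 6 in the 3' UTR between 167 and 873 nt downstream. Conversion at the coding pair was 5.39% at 157 tags. In the 3' UTR it ran from 1.62% at 825 tags, 237 nt past the stop codon, to 14.3% at 41.0 tags, 873 nt past it. The pair with the most converted tags, 20.7 of 639, was 441 nt past the stop codon. Depth thus varied more widely than conversion along this 1 exon. The other gene of the m6A list with a pair was fl(2)d, which encodes a WTAP-type subunit of the writer complex. Its pair was in exon 1, 47 nt past the first base of the start codon, with 2.08% conversion at 1118 tags in 4 IPs and a peak height of 189. The list's 11 genes held 8 pairs among 21 C-to-T sites labelled coding or 3' UTR, or 38.1%, where the share over both labels was 12.7%. That 12.7% takes in translation genes, with 36 pairs and 1274 unpaired sites, against 269 pairs and 822 unpaired sites elsewhere. Of the list's 8 pairs 7 are in Ythdc1, so the 38.1% describes that gene.

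In chinmo, which encodes a BTB zinc finger factor of neuronal temporal identity, 3 pairs lay in the 3' UTR, 1499 to 2350 nt past the stop codon, with 5.75% to 9.30% conversion. A further 3 were discordant pairs, 1526 to 664 nt upstream of the start codon, with 2.4% to 10.5%. Both ends of this mRNA thus carried pairs under the 1 label. Mekk1, a stress-responsive MAP kinase kinase kinase gene, had the same layout, with 2.75% and 2.76% at discordant pairs and 17.4% at its pair 151 nt past the stop codon.

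Of the remaining genes with 3 or more of the 305 pairs, 4 had them in the 3' UTR. eIF4H1, an initiation factor gene listed as Rbp2, had 4 pairs in the 3' UTR with 2.64% to 5.10% conversion. msn, a Ste20 family kinase gene, had 3 there with 3.73% to 8.28%. Gbeta13F, a G protein beta subunit gene, had 3 with 3.89% to 6.61%, and aqz had 3 with 2.95% to 8.59%. Beside these, aqz had 4 pairs labelled 5' UTR, msn 2, Gbeta13F 1 and eIF4H1 0. Tm1, a tropomyosin gene, had coding pairs 28 and 147 nt past the first base of the start codon, at 2.18% and 7.76%, and 1 pair 319 nt past the stop codon, at 12.6%. Conversion rose along it as depth fell, from 458 to 100.6 and 48.7 tags.

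In the other 6 genes all of the 305 that they held were discordant pairs. They were gpp, the gene of the histone H3 lysine methyltransferase Dot1, with 4 pairs, and with 3 each EcR, the ecdysone receptor gene, REPTOR, the gene of a transcription factor downstream of TOR signalling, nuf, whose product is a Rab11 partner on recycling endosomes, mtgo and CG46385. Conversion at these pairs was lowest in EcR, at 2.14% to 2.98%, and highest at 1 pair of REPTOR, at 9.44%.

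**Figure D5:**
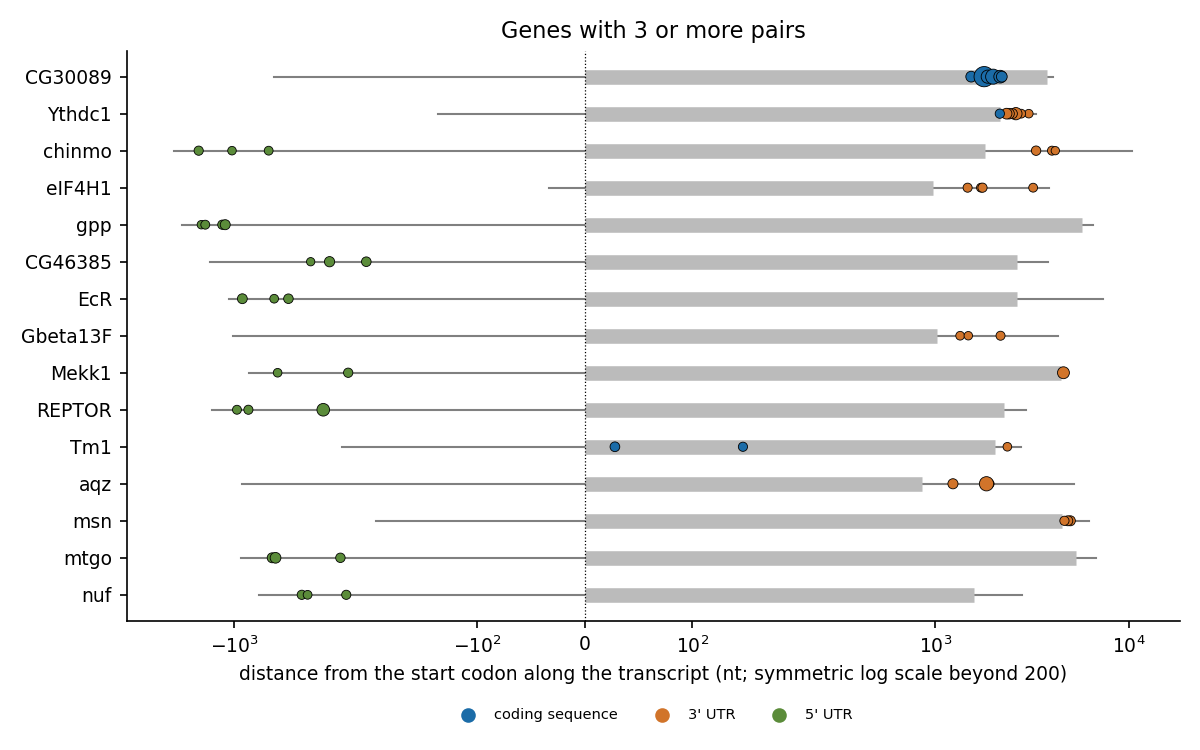
Pairs of the 15 genes with 3 or more, by distance from the start codon along the transcript used (x axis, nt, symmetric log scale beyond 200). Grey bars are coding sequence, thin lines UTRs of the transcript of the gene's first pair, and points grow with converted tags and are coloured by annotated region. The 7 coding pairs of CG30089 lie 1532 to 2204 nt past the first base of the start codon, and 6 genes have points only upstream of it.

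Of the 10 pairs with the most converted tags, 6 lay in ribosomal protein genes. The highest was in CG5174 on arm 2R, 387 nt past the stop codon at position 18425834, with 89.1 of 619 tags and 14.1% conversion; its second pair, 62 nt further on, had 8.0 of 175 tags and 4.57%. RpS28b, a small subunit protein gene on the X chromosome, had 75.6 of 443 tags at a 3' UTR pair (16.8%) and 49.6 of 1103 at a coding pair 5 nt past the first base of the start codon (4.46%). Their peak heights were 132 and 132 as means over aligners, but differed by aligner, at 181 and 148 with Novoalign and 83.0 and 145.5 with STAR for the 3' UTR and the coding pair. RpL23 followed its 67.7 converted tags of 2042 (3.39%) with the tallest truncation of all, a peak height of 298. RpL37A had 39.3 converted tags at a pair 27 nt past the stop codon (8.33%), RpS25 had 39.0 at its 3' UTR pair (3.76%), and RpL35 had 35.6 at a coding pair (4.13%) with a peak height of 218. RpL23A, at a peak height of 200, had only 0.701% conversion at 1888 tags. Several ribosomal protein genes have near-identical copies, so reads of these pairs may be shared with a paralog and their placement is uncertain.

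Outside the ribosome, E2f1, the gene of the cell cycle transcription factor, had 43.8 of 776 tags at a discordant pair 586 nt upstream of the start codon (5.37%). mask, which encodes an ankyrin repeat cofactor of Yorkie, had 38.3 of 263 tags at a coding pair (15.3%) that was listed with 1 aligner. CG4572 had the highest conversion of the 305 pairs, 19.1% at 58.6 tags in its 3' UTR. When tags were summed over the IPs for the aligner Novoalign, its share was 15.2% (36 of 237 tags, Wilson interval 11.2% to 20.3%), below Mekk1, at 18.1% (15% to 21.8%), so the order of these pairs turned with the way tags were combined and lay within counting error. dos, a Gab family adaptor gene of receptor tyrosine kinase signalling, had 14.5% at 50.7 tags.

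Axon growth genes were represented by 4 of the 41 listed, with 7 pairs among 21 sites labelled coding or 3' UTR, or 33.3%. The share over all genes was 12.7% with translation genes, where pairs were rarer, included. That share is no like background for this list, since elsewhere there were 269 pairs and 822 unpaired sites. Of the list's 7 pairs 3 were discordant, and C-to-T sites with this discordance were paired at 49.5%. The axon list also had 27 pairs labelled 5' UTR. Rac2, a small GTPase gene, had 3' UTR pairs 77 and 950 nt past the stop codon with 2.87% at 287 tags and 10.7% at 55.5 tags. trio, a guanine nucleotide exchange factor gene, had coding pairs 20 and 109 nt past the first base of the start codon, with 3.04% and 2.99%, each listed with 1 aligner and in 2 IPs. The pairs of Dscam1, the gene of a neuronal recognition receptor, at 4.65% and 3.08%, and of unc-5, a netrin receptor gene, at 3.63%, were discordant pairs. By annotation, then, 2 of these 4 genes kept pairs outside the 5' UTR.

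Ribosomal proteins had 26 pairs in 21 of 93 genes, 15 coding and 11 in the 3' UTR, which was 2.53% of their 1028 C-to-T sites labelled coding or 3' UTR. Besides the genes above, RpS27 had 2 pairs in its 3' UTR with 2.58% and 2.12%. RpL21 had the lowest conversion of all pairs, 0.610% at 1282 tags. Initiation and elongation factors had 10 pairs in 6 of 42 genes, 3.55% of 282 sites. eIF4G1, the scaffold of the cap-binding complex, had 2 coding pairs far inside the gene with 5.96% and 5.64%, eIF4A, its helicase partner, had 2.53% in the 3' UTR, and eIF1 had 5.33% there.

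The Notch and Hippo pathway lists held 2 pairs each, among 3 and 2 sites labelled coding or 3' UTR, too few for a share, beside 21 and 12 pairs labelled 5' UTR. kuz, whose product cleaves the Notch receptor, had 2 coding pairs, 136 and 213 nt past the first base of the start codon, with 6.42% and 6.64%. The Hippo pathway coactivator gene yki had a coding pair at 7.68% and that of its DNA-binding partner sd a 3' UTR pair at 8.11%. The pairs of these 3 genes were covered by 67.8 to 102 tags, below the median of the pairs.

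In the cytoskeleton list 4 of 32 genes had 7 pairs among 46 sites labelled coding or 3' UTR, or 15.2%. The 12.7% over all genes takes in translation genes and is no like background for this list. Outside translation genes there were 269 pairs and 822 unpaired sites. Beside Tm1, Moe, the moesin gene, had 2 in the 3' UTR with 3.74% and 2.91%, alphaTub84B 1 with 3.68% and the Arp2/3 subunit gene Arpc2 1 with 2.36%. Among small GTPases, Rab10 had a coding pair 33 nt past the first base of the start codon with 3.74%, and Rab2 a 3' UTR pair with 7.63%. Single pairs stood in the proteasome ATPase gene Rpt6 (coding, 3.81%) and in Hsc70-3, the gene of the endoplasmic reticulum chaperone BiP (3' UTR, 4.06%). Respiratory chain genes had 3' UTR pairs, with 4.70% and 6.52% in Cyt-c1 and 3.55% in ATPsynC. The RNA-binding protein genes heph and ps had 1 discordant pair each, with 1.95% and 4.26%. Sites labelled coding or 3' UTR numbered 4 each in the proteasome and GTPase lists, 11 in the respiratory and 7 in the splicing list. These are too few for a share. The chaperone list had 44 such sites, of which 1 was paired (2.27%). The chromatin list of 28 genes and the lipid synthesis list of 9 had 0 pairs among 3 and 8 sites labelled coding or 3' UTR. The 229 pairs of 166 genes were in no list.

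Site lists hold no expression values, so haemocyte markers were only looked up for listed sites. Of 18 markers 10 had any site. The share of all genes with a site was not determined, so this count is no test of the cell line. SPARC, a collagen-binding matrix protein gene, was the only marker among the genes of the 305 pairs, with a coding pair at 1.82%. This was 1 pair among the list's 36 sites labelled coding or 3' UTR (2.78%). The markers also had 8 pairs labelled 5' UTR.

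Support over the IPs and aligners was uneven. By the aligner with the most IPs for each site, the C-to-T site was shared by 4 IPs at 129 pairs (42.3%). The truncation was so at 168 (55.1%) and both at 86 (28.2%), where the sites of a pair may rest on different aligners. Pairs labelled 5' UTR had the C-to-T site in 4 IPs in 42.8% of cases, and unpaired sites labelled coding or 3' UTR in 28.7%. STAR alignments gave 150 of the 305 C-to-T sites but 281 of the truncations, so the C-to-T part of these pairs rests more on Novoalign and BWA.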

How the data were processed

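Sites of untreated S2R+ cells came from the authors' 2 deposited lists of the 4 IPs. Per the file headers and column legend, each listed value other than the count of aligners is joined for Novoalign, STAR and BWA and combined over the IPs that share the site, 2 to 4. Values were averaged here over aligners, except the number of IPs, for which the highest of the aligners was taken. The submitters' processing notes name dm6, cutadapt 1.8, Bowtie 1.1.2 and STAR 2.4.2a. Deposited quantities were tag counts, conversion in percent and truncation peak height. The sources used here do not give whether sites were filtered against the control libraries. Only listed C-to-T sites have a known depth.

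Pairs were matched in Python 3.11.15 with pandas 2.3.3 and placed on the longest transcript of Ensembl release 115 (BDGP6.54), 1-based; 300 of 305 gene names matched the annotated gene and 296 pairs were in exons of 1 gene. Wilson 95% intervals used scipy 1.17.1. Members, lists and windows were chosen with earlier results of these data known. Named were genes with 3 or more pairs, the 10 pairs with the most converted tags, the 5 highest in conversion and in peak height, all m6A and axon genes with a pair and up to 4 of each other list; RpL21, lowest in conversion, was added after its value was seen, and 1 gene that the rule names is not reported here. Of the names in the lists 3 were unmatched. The scripts were tested on simulated pairs. No genome sequence was used here, so the planned test of the DRACH motif was not run and no sequence is printed.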

Additional observations from a re-analysis of the deposited data

How the results depend on the processing

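The 305 pairs became 86 when both sites had to be in 4 IPs, 122 with all 3 aligners and 143 with converted tags above the list median, and 501 with a truncation at A within 3 nt on either side. The paired share of coding sites, 6.25%, was 15% with that wider window and 13.2% (63 of 479) at sites with fewer unique tags than the list median. The share of 3' UTR sites, 24.9%, was 31.9% and 38.5% (149 of 387) under the same settings, 21.2% in 4 IPs and 18.4% with the annotation in place of the label. Median conversion, 4.70%, was 4.22% with STAR, 5.09% with BWA, 5.12% in 4 IPs and 4.21% with converted tags above the list median. Under that last filter 50% (23 of 46) of coding pairs were in the first 200 coding nt and 54.6% (53 of 97) of pairs labelled 3' UTR were in annotated 5' UTR. The other 30 values stayed within the interval of the value in the report or, for counts, within 1.5 times of it. They take in the start codon share without CG30089 (65.9%), outside translation genes (66.3%) and with the longest coding isoform (61.2%). Alternatives on position and label were chosen after seeing the data; the causes of the shifts were not tested. No paired analysis was possible because the site values are listed only as combinations of the IPs, which also made leaving out a replicate impossible. Site lists give no coverage at unlisted positions, so a missing truncation or conversion cannot be told from low depth.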
